A study of Mus musculus with 4 samples.

Results

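The genes described here encode the subunits of the receptors for glutamate, GABA and glycine, and they number 50 of the 27293 genes in the count table of the series. They were taken by symbol alone, as every row named for an AMPA (Gria), kainate (Grik), NMDA (Grin), delta (Grid), metabotropic glutamate (Grm), GABA-A (Gabr), GABA-B (Gabbr) or glycine (Glra, Glrb) receptor subunit. No measured value entered this rule, but it was chosen with earlier results of these data known. The set holds 4 AMPA, 5 kainate, 7 NMDA, 2 delta, 8 metabotropic glutamate, 17 GABA-A, 2 GABA-B and 5 glycine receptor genes, and all 50 are annotated as protein coding. Gabra6 and Gabrr3 were not analysed here.

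Glutamate opens the cation channels built from AMPA, kainate and NMDA subunits, which excite the cell, and acts on metabotropic receptors, which signal through G proteins. GABA and glycine open chloride channels built from GABA-A and glycine receptor subunits, and GABA also acts on the metabotropic GABA-B receptor. In the embryonic telencephalon these receptors appear before most synapses have formed, and young neurons and progenitors sense the transmitters that leak from neighbouring cells.

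The study asked how loss of STING, an adaptor of the innate immune response to cytosolic DNA, changes gene expression in the developing forebrain. RNA was taken at embryonic day 13 (E13) from telencephalic tissue of C57BL/6 mice, and 4 libraries were sequenced from 2 µg of total RNA each. The 2 libraries WT 1 and WT 2 carry the genotype label WT. The 2 libraries cKO 1 and cKO 2 carry the label STINGf/f;Nestin-Cre, in which Cre recombinase under the Nestin promoter is meant to recombine a floxed STING gene in neural progenitors. Which cells of the tissue lost or kept the gene cannot be read from these counts. The title of WT 2 holds another abbreviation than that of WT 1, and the labels leave unsaid whether this library carried Nestin-Cre. The labels do not say how many embryos or litters stand behind a library, so p-values measure only the spread between these samples, which may be technical. Counts are given below in the order WT 1, WT 2, cKO 1, cKO 2 wherever no library is named. In bulk tissue, fewer cells of a type and less RNA per cell cannot be told apart.

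Reads on genes summed to between 17209654 and 18533391 per library, and 3 counts, the limit that a count of 0 allows, corresponded to 0.162 to 0.174 CPM, the count scaled to library size. These limits cover counting error only. The STING gene, listed as Tmem173, had 20, 19, 18 and 22 counts, so its gene-level count did not separate the libraries labelled cKO from those labelled WT. Markers of the labelled tissue were abundant: 12 cortical neuron genes summed to between 5849 and 7011 CPM and 12 cortical progenitor genes to between 3217 and 3435. WT 1 stood apart in 7 choroid plexus genes, which summed to 30.8 CPM against 1.62 to 3.53 in the other libraries. It did so too in 10 genes of meninges and mesenchyme, with 309 against 45.6 to 83.5. WT 1 was also highest in the marker sums of blood (962 against 440 to 668) and endothelium (163 against 105 to 121). The same held for diencephalon (90.8 against 51.5 to 59.7) and microglia (42.6 against 26.9 to 33.6). The cKO 1 library was low in 12 genes of ventral GABA neurons, with 928 against 1342 to 1413. Of 4 Y-linked genes summed, WT 2 had 0 counts and WT 1, cKO 1 and cKO 2 had 2735, 3002 and 1848. The part of these differences in the receptor values below was not tested.

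Receptor subunits were transcribed over a wide range of levels. Levels of different genes are compared here as RPKM, the CPM divided by the length of the gene's exons in kilobases. A mean RPKM of at least 1 over the 4 libraries was reached by 27 subunits, while 7 had a mean under 0.1. The 5 most counted subunits held 64.8% of all receptor counts, which totalled 28138 and 32194 in the WT and 28547 and 26924 in the cKO libraries. The order began with the kainate subunit Grik5 (mean RPKM 49.4), the GABA-B subunit Gabbr1 (42.0), the kainate subunit Grik3 (21.9), the AMPA subunits Gria1 (15.3) and Gria2 (11.0) and the glycine receptor subunit Glra2 (10.6). The ranges over the 4 libraries did not overlap between Gabbr1 and Grik3, between Grik3 and Gria1 and between Gria1 and Gria2, while those of Grik5 and Gabbr1 and those of Gria2 and Glra2 did.

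**Figure D1:**
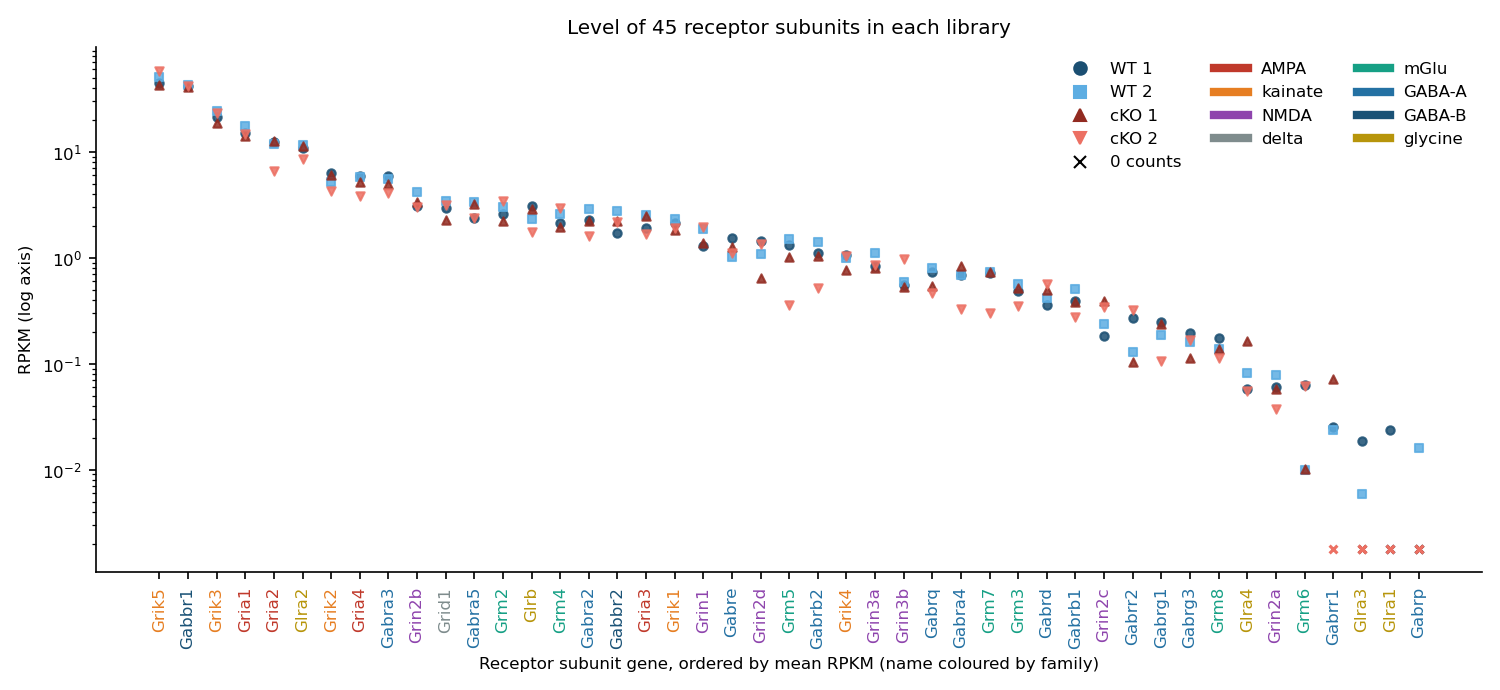
RPKM of 45 receptor subunits (log axis) in each library, with genes ordered by their mean RPKM and names coloured by family; crosses at the foot of the axis mark libraries with 0 counts. Levels run from a mean of 49.4 for Grik5 to 0.00402 for Gabrp, and cKO 2 is the lowest library for many genes in the middle of the order.

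Of the 50 subunits, 44 had enough counts to be tested for a difference between the groups with edgeR's quasi-likelihood test, fitted on all 16145 genes that passed the filter on low counts. The study's own thresholds, at least a 2-fold difference with p (unadjusted) no higher than 0.05, called 1 of them, Grm5, which was lower in the libraries labelled cKO. The same thresholds called 0.811% of all genes tested, and 0.669% were called in the lower direction. Grm5 was also the only subunit with an unadjusted p under 0.05, a level that 1.23% of all genes reached. After Benjamini-Hochberg adjustment, 0 subunits and 0 genes of the whole table had an adjusted p under 0.05, by edgeR and by DESeq2, and edgeR gave all 44 subunits an adjusted p of 0.99998. DESeq2 also called Grm5 and no other subunit. An exact permutation test of 2 against 2 libraries could not go below a two-sided p of 0.333, so none was run for single genes.

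Most subunits lay slightly below the WT level without passing the test. The log2 fold change of cKO over WT was below 0 for 36 of the 44 (81.8%), against 52.1% of all genes tested, and its median was -0.24 against -0.01. Both cKO libraries were below both WT libraries for 12 subunits (27.3% of those tested), while 10.8% of all genes showed that order. The opposite order, both cKO libraries above both WT libraries, held for 2 subunits (4.55%) and for 11% of all genes. By library, cKO 2 was the lowest library for 24 subunits (54.5%, against 33.4% of all genes), and WT 2 was the highest for 20 (45.5%, against 17.6%). Without cKO 2, 29 subunits lay below 0 with a median of -0.16, and without cKO 1, 33 lay below 0 with a median of -0.39. Without WT 2, 31 lay below 0 with a median of -0.24. Leaving out WT 1, which stood apart in choroid plexus, meninges and other marker genes, left 39 below 0 with a median of -0.27. The median over all genes lay between -0.02 and 0.01 in each of these fits.

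**Figure D2:**
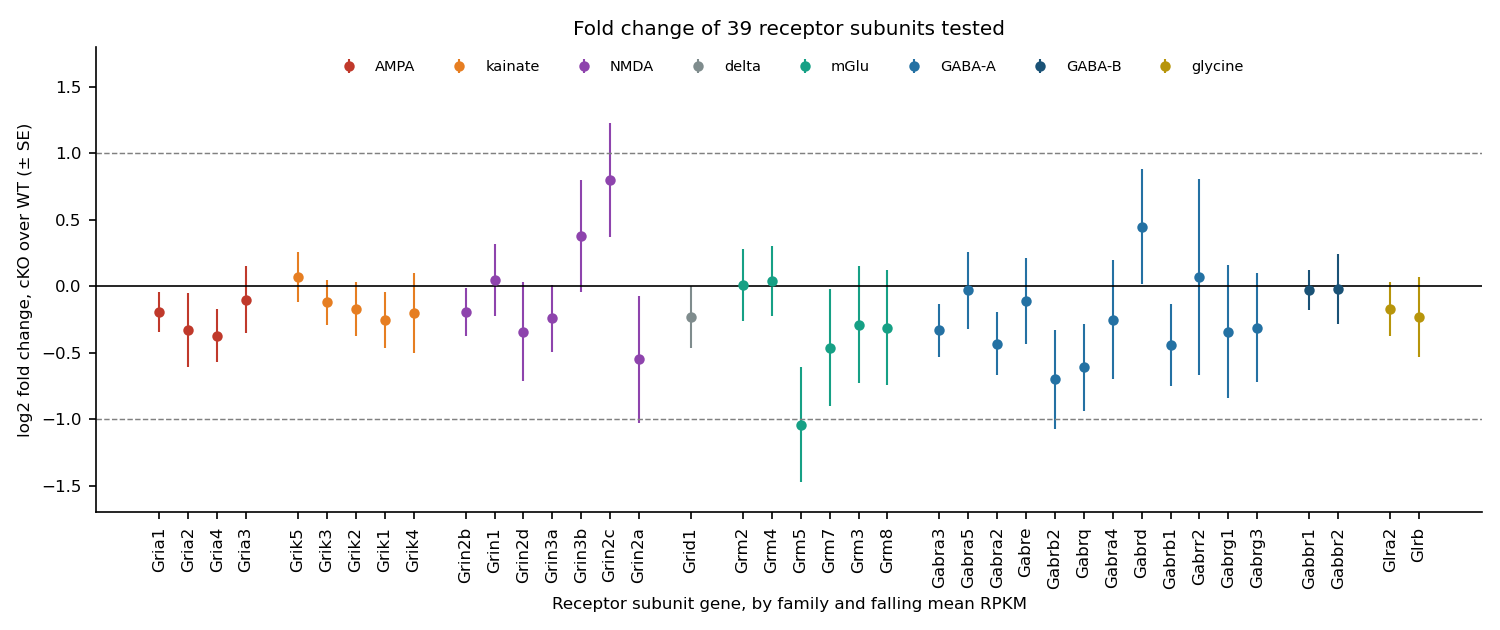
Log2 fold change of cKO over WT with its standard error for 39 of the receptor subunits tested (2 libraries per group), grouped and coloured by family; dashed lines mark a fold change of 2 in either direction. Most points lie just below 0, from -1.04 for Grm5, past the lower dashed line, to 0.80 for Grin2c.

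The base composition of the transcripts moved with these values. Among the 44 subunits, the deviation of a library from the mean of the 4 had a Spearman correlation with transcript GC content of -0.51 and -0.21 for WT 1 and WT 2, and of -0.58 and 0.81 for cKO 1 and cKO 2. Over 16120 genes with a known GC content the same correlations were -0.27, -0.06, -0.54 and 0.61. These are descriptions across genes, which are not independent replicates and which share a library. The libraries labelled cKO thus stood at opposite ends, with GC-rich genes low in cKO 1 and high in cKO 2.

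The subunits themselves spanned 35.2 to 65% GC. In the lowest tertile of GC content over all genes (28.7 to 46.9%), all 21 subunits had a log2 fold change below 0 and cKO 2 was the lowest library for 20 of them. Of all 5373 genes in this tertile, 3758 were below 0. The median log2 fold change was -0.33 for the subunits and -0.10 for all genes in this tertile. The median log2 deviation of cKO 2 from the mean of the other libraries was -0.55 for the subunits and -0.30 for all these genes. The middle tertile (46.9 to 53.2% GC) held 12 subunits, of which 11 were below 0 and cKO 2 was the lowest library for 4. Their median was -0.24, against 0.01 for all 5373 genes in this tertile, of which 2548 were below 0. The highest tertile (53.2 to 78.3% GC) held 11 subunits, of which 4 were below 0 and cKO 2 was the lowest library for 0. There the median was 0.04, the same as that of all 5374 genes in this tertile, of which 2098 were below 0. A smooth function of GC content was then added to the fit of each library as an offset, an alternative chosen after the data were seen. With it, 32 subunits (72.7%, against 42% of all genes) lay below 0 and the median was -0.14 against 0.03. From the lowest to the highest tertile, the medians with the offset were -0.14, -0.21 and 0.01, against 0.03, 0.04 and 0.04 for all genes. The subunits tested were also longer than other genes, with a median exon length of 6451 bases against 4140 for all genes tested. An offset for both GC content and exon length, also chosen after the data were seen, left 30 subunits below 0. Their median was then -0.11, against 0.04 for all genes.

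**Figure D3:**
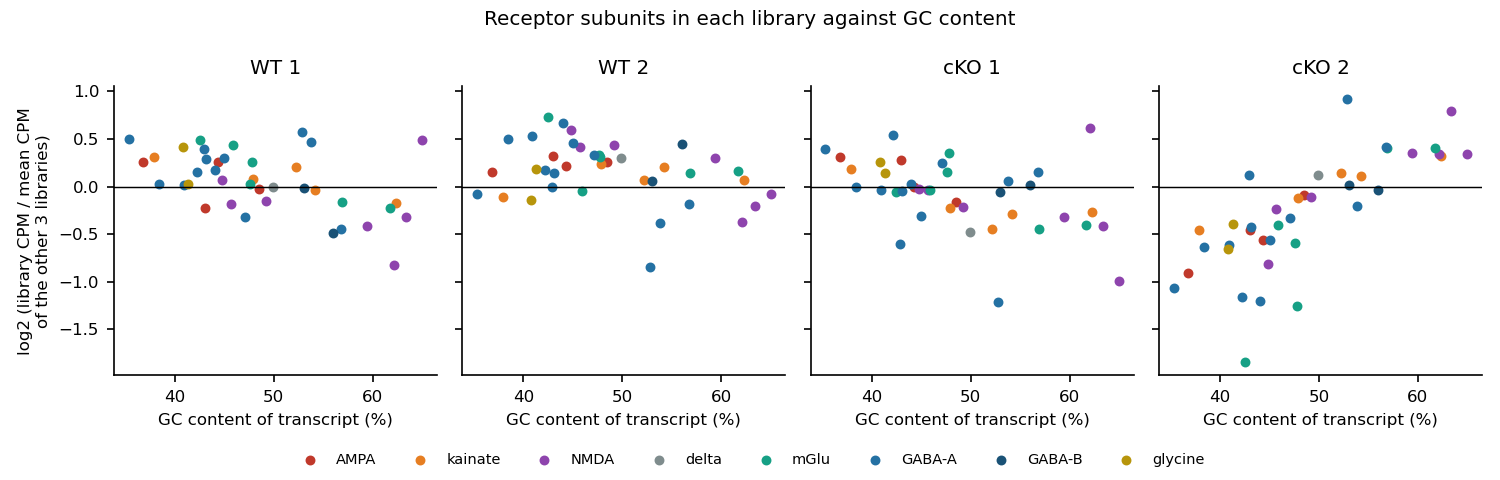
Log2 ratio of each library's CPM to the mean of the other 3 libraries (vertical axis) against the GC content of the gene's longest coding transcript in percent (horizontal axis), for 39 of the subunits tested, 1 panel per library, coloured by family. The points climb with GC content in cKO 2 and descend in WT 1 and cKO 1, where the Spearman correlations over all 44 subunits tested were 0.81, -0.51 and -0.58.

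The AMPA subunits form the channels that carry most fast excitatory transmission. Gria1, on chromosome 11 (57011387 to 57330244, GRCm38), had 1591, 1952, 1554 and 1581 counts. Gria2, on chromosome 3 (80681450 to 80802835), whose edited form makes the channel impermeable to calcium, had 3397, 3396, 3651 and 1835. For Gria1 both cKO libraries were just below WT 1, and for Gria2 the cKO 2 library alone was low, at 0.532 of the mean of the other 3, while cKO 1 was the highest.

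Their log2 fold changes were -0.19 (SE 0.15) and -0.33 (SE 0.28). With the GC offset the log2 fold change of Gria2, whose transcript holds 36.8% GC, was -0.02. Gria4, a subunit prominent in the immature brain, had 651, 672, 601 and 432 counts, and both cKO libraries were below both WT libraries (log2 fold change -0.37, SE 0.20). Gria3 had between 297 and 460 counts and the groups overlapped.

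Gria1 to Gria4 share a conserved pore with a glutamine codon, which in Gria2, alone among the AMPA genes, is edited in the RNA to one for arginine by the enzyme encoded by Adarb1. The kainate genes Grik1 and Grik2 are edited at the matching codon too, but their stretches span an intron and are not shown. The genomic sequence around the codon follows for the AMPA subunits and, for comparison, for the kainate subunits Grik4 and Grik5, which like Gria1, Gria3 and Gria4 are not known for this editing, from the GRCm38 coding sequence of GENCODE M21, 5′ to 3′ on the coding strand with the glutamine codon matching that of Gria2 in capitals.
Gria1: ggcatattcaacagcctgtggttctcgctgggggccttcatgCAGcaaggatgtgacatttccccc
Gria2: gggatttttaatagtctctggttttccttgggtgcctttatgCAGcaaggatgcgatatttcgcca
Gria3: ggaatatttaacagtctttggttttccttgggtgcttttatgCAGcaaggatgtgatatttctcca
Gria4: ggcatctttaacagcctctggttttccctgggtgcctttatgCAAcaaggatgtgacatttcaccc
Grik4: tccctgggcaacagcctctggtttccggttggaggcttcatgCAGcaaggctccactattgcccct
Grik5: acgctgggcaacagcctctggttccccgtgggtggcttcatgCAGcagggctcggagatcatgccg

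Each stretch of 66 bases lies within 1 coding exon. That of Gria2 is on the minus strand of chr3:80706890-80706955 in exon 11 of 16, and that of Grik5 on the minus strand of chr7:25022476-25022541 in exon 15 of 20. Among the AMPA genes the stretches share 51 (Gria1 and Gria2) to 59 (Gria2 and Gria3) of 66 bases, and Grik4 and Grik5 share 50. Their GC content is 37.9% in Gria3, 43.9% in Gria2, 56.1% in Gria1 and 65.2% in Grik5. Counts per gene do not show whether the codon of Gria2 was edited. The editing enzyme's gene Adarb1, named outside the rule for named genes, had 546, 646, 545 and 589 counts.

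Kainate subunits held the most counts of any family, with a summed CPM of 531 and 571 for WT and 487 and 584 for cKO. Grik5, on chromosome 7 (25009849 to 25072346), encodes a high-affinity subunit that needs a partner from Grik1 to Grik3 to form a channel, and had 4063, 4879, 4059 and 5384 counts. Grik3, on chromosome 4 (125490700 to 125714173), a low-affinity subunit able to form channels alone, had 3347, 4001, 3093 and 3710. Here cKO 1 was the lowest library for both genes, cKO 2 was the highest for Grik5, and the groups overlapped.

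The log2 fold changes were 0.07 (SE 0.19) for Grik5 and -0.12 (SE 0.17) for Grik3. Grik2, which carries 37.9% GC, had 1468, 1257, 1458 and 1009 counts and was again lowest in cKO 2. Grik1 had 224 to 288 counts, with both cKO libraries below both WT libraries, and Grik4, the second high-affinity subunit, had 83 to 111. Grik5 made up 59.3 to 65.7% of the summed RPKM of the 5 kainate genes and Grik3 26.1 to 28.8%.

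NMDA receptors combine the obligatory glycine-binding subunit Grin1 with glutamate-binding subunits of the Grin2 group. Grin2b, the form that prevails before birth, lies on chromosome 6 (135713233 to 136173511) and had 1336, 1913, 1525 and 1340 counts. Grin1, on chromosome 2 (25291181 to 25319187), had 220, 337, 243 and 336. WT 2 was the highest library for Grin2b and level with cKO 2 for Grin1, and the WT libraries lay further apart than the group means.

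Grin2b gave 63.6 to 75.4% of the summed RPKM of Grin2a to Grin2d, and Grin2d, which slows the decay of the receptor's current and is also embryonic, 14.6 to 30.1%. Grin2d had 166, 133, 79 and 160 counts, lowest in cKO 1. Grin2c, on chromosome 11 (115249169 to 115267243), a subunit of the adult cerebellum and of glia, had only 16 and 22 counts in the WT libraries against 36 and 31 in cKO 1 and cKO 2, and the groups did not overlap (log2 fold change 0.80, SE 0.43). The other adult-type subunit, Grin2a, had 12 to 26 counts, with a log2 fold change of -0.55 (SE 0.48). Grin3a and Grin3b, glycine-binding subunits that lower calcium entry, had 178 to 254 and 32 to 57 counts.

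**Figure D4:**
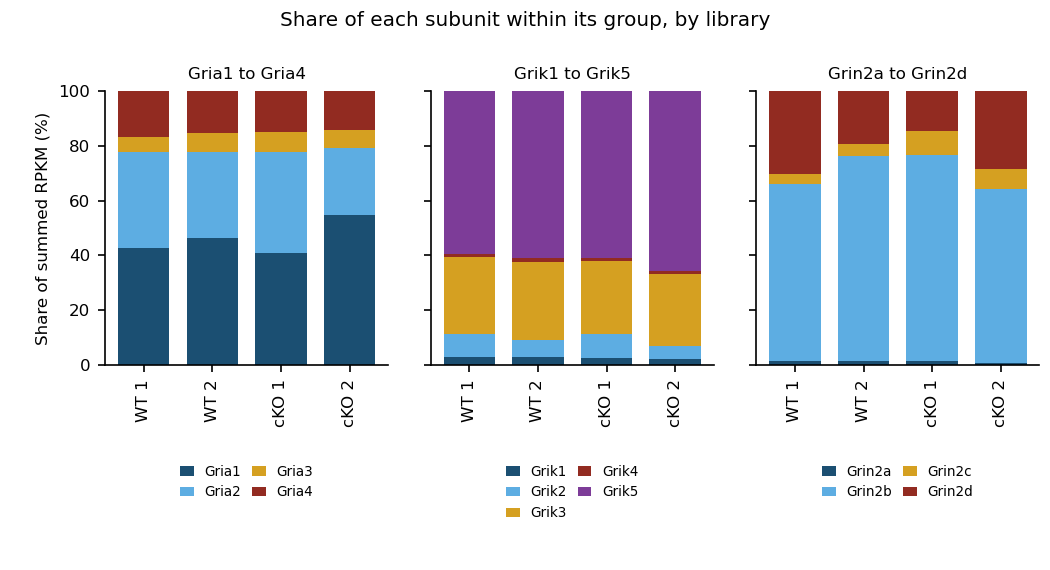
Share of each subunit in the summed RPKM of its group, in percent, for 3 groups of subunits in each of the 4 libraries. Gria1 (40.7 to 54.7%), Grik5 and Grin2b hold the largest share of their groups in every library.

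The delta subunits bind cerebellin proteins at the synapse and are not opened by glutamate. Grid1, on chromosome 14 (34819825 to 35583379), had 306, 379, 250 and 336 counts. The WT and cKO counts of Grid1 overlapped (log2 fold change -0.23, SE 0.23), with cKO 1 the lowest library.

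Among metabotropic glutamate receptors, Grm5 belongs to group I, which activates phospholipase C, while the receptors of groups II and III inhibit adenylyl cyclase. Grm5 lies on the plus strand of chromosome 7 (87584168 to 88134907, ENSMUSG00000049583) and is a metabotropic receptor known from neural progenitors. It had 237 counts in WT 1 and 281 in WT 2, against 190 in cKO 1 and 65 in cKO 2, or 13.6, 15.2, 10.4 and 3.63 CPM. The libraries labelled cKO lay below those labelled WT, but they were also far apart from each other.

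The CPM of Grm5 was 14.4 ± 1.15 in WT and 7.00 ± 4.76 in cKO (SD, n = 2 libraries each). The edgeR fit gave a log2 fold change of -1.04 (SE 0.43), an unadjusted p of 0.0416 and an adjusted p of 0.99998. Without cKO 2 it was -0.46 with an unadjusted edgeR p of 0.0777, and without cKO 1 it was -1.99. Without WT 2 and with the GC offset the log2 fold change was -0.94 and -0.97, both short of a fold of 2, with unadjusted edgeR p of 0.0184 and 0.0109. The ratio of cKO 2 to the mean of the other libraries was 0.278, lower than for any other subunit tested, and 11 subunits had a lower GC content than the 42.5% of Grm5.

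Grm2, on chromosome 9 (106643095 to 106656082), a presynaptic receptor of group II, had 220, 272, 198 and 301 counts. Grm4, on chromosome 17 (27422387 to 27513341), of group III, had 222, 288, 212 and 315. Grm2 and Grm4 were the most abundant metabotropic receptors per length (mean RPKM 2.81 and 2.41), were both highest in cKO 2 and lowest in cKO 1, and had log2 fold changes of 0.01 and 0.04. Grm7, which like Grm4 belongs to group III, had 73, 79, 80 and 32 counts, so that cKO 2 alone was low. Grm3 and Grm8 had 19 to 32 and 20 to 30 counts. Grm6, the receptor of retinal bipolar cells, had 1 to 6 counts and was not tested.

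**Figure D5:**
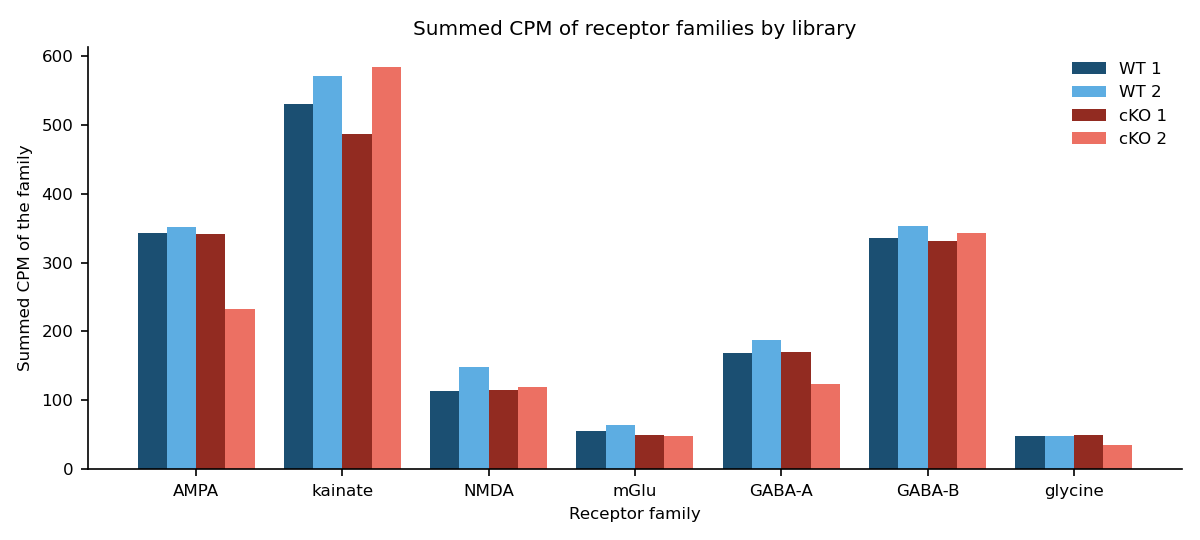
Summed CPM of 7 receptor families (vertical axis) in each of the 4 libraries, with no error bars because each bar is 1 library. AMPA (232 against 341 to 351), GABA-A (124 against 169 to 187) and glycine (35.3 against 47.9 to 49.5) subunits are low in cKO 2 alone. For metabotropic glutamate receptors both cKO sums (48.9 and 48.0) lie below both WT sums (55.7 and 64.3), and the other families overlap between the groups. Of the metabotropic sums, Grm5 alone holds 13.6 and 15.2 CPM in WT and 10.4 and 3.63 in cKO, while Grm2 and Grm4 are highest in cKO 2.

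GABA-A receptors are pentamers, usually of alpha and beta subunits with a gamma or delta subunit. Gabra3, on chromosome X (72432681 to 72656848), an alpha subunit of immature neurons, had 407, 400, 361 and 287. Both cKO libraries were below both WT libraries for Gabra3 (log2 fold change -0.33, SE 0.20).

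Gabra2 and Gabra5, the other alpha subunits of the embryonic forebrain, had 217 to 404 and 124 to 184 counts. Gabra4, an alpha subunit of the mature brain, had 36 to 93, and cKO 2 was the lowest library for Gabra2 and Gabra4.

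The GABA-A subunits with the smallest p were Gabrb2 and Gabrq. Gabrb2, on chromosome 11 (42419757 to 42629028), the main beta subunit of the adult brain, had 124, 166, 121 and 59 counts. Its log2 fold change was -0.70 (SE 0.37), and cKO 1 was close to WT 1. Gabrq, on chromosome X (72825178 to 72842602), which encodes the theta subunit, had 69, 79, 53 and 45 counts, with no overlap between the groups and with cKO libraries close to each other (log2 fold change -0.61, SE 0.33). Gabre, the epsilon subunit beside Gabra3 on chromosome X, had 88 to 128 counts and overlapped. Gabrb1 had 69 to 129 counts, Gabrg1 15 to 34, Gabrg3 25 to 40 and Gabrd, the delta subunit of extrasynaptic receptors, 18 to 29. The rho subunit gene Gabrr2 had 4 to 12 counts and was tested, while Gabrr1 (0 to 3) and the pi subunit gene Gabrp (0 to 1) were not.

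Most GABA-A genes lie in clusters on the chromosomes. On chromosome 5, Gabrg1, Gabra2, Gabra4 and Gabrb1 had log2 fold changes of -0.34, -0.43, -0.25 and -0.44, and on chromosome 7, Gabrg3 and Gabra5 had -0.31 and -0.03. None of these passed the thresholds. The annotated spans of Gabra4 and Gabrb1 overlap by 196 bases on opposite strands. As the sources used here do not state whether counting used the strand, reads in this overlap cannot be told apart. Of the 6 receptor genes on chromosome X, 5 were tested, with log2 fold changes from -0.61 to -0.10. WT 2, the library with 0 counts of Y-linked genes, was the highest for 3 of these 5, and for 20 of all 44 subunits tested.

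The GABA-B receptor is a dimer of Gabbr1, which binds GABA, and Gabbr2, which couples to the G protein. Gabbr1, on chromosome 17 (37045966 to 37075067), had 5648, 6171, 5803 and 5875 counts, between 40.8 and 43.1 RPKM in every library. Gabbr2, on chromosome 4 (46662305 to 46991873), had 199, 341, 273 and 260. The WT libraries of Gabbr2 enclosed both cKO libraries. The log2 fold changes were -0.03 (SE 0.15) and -0.02 (SE 0.26), and the mean RPKM of Gabbr1 was 42.0 while that of its partner was 2.22.

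Glycine receptors of the embryonic brain are built mainly from Glra2, alone or with Glrb, the subunit that anchors the receptor to gephyrin. Glra2, on chromosome X (165129017 to 165327393), had 591, 680, 657 and 484 counts. Glrb, on chromosome 3 (80843599 to 80913660), had 250, 200, 244 and 146. For both genes cKO 2 was the lowest library while cKO 1 lay within the WT range. Their log2 fold changes were -0.17 (SE 0.20) and -0.23 (SE 0.30), and with the GC offset 0.00 and -0.05. The other alpha subunits were near the limit of detection, with 0 to 1 counts for Glra1, the adult form of the spinal cord, 0 to 3 for Glra3 and 2 to 6 for Glra4, and none of them was tested.

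Genes that make, carry or clear the transmitters, and those that anchor the receptors, were examined in 6 further lists. Glutamine synthetase (Glul) had 3229, 3063, 3077 and 3380 counts, and the glutamate transporter gene Slc1a3 had 1988, 2118, 2284 and 1615. Of the 12 tested genes of glutamate synthesis and transport, 0 were called and 0 had an unadjusted p under 0.05 by edgeR, and their median log2 fold change was -0.03.

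The list of GABA and glycine synthesis and transport had a median log2 fold change of -0.20 over 9 tested genes, of which 0 were called and 1, Gad1, had an unadjusted edgeR p under 0.05. The GABA-producing enzyme Gad1 had 1388, 1352, 1052 and 981 counts. Its groups did not overlap, and the log2 fold change was -0.45 (SE 0.15) with an unadjusted edgeR p of 0.0179, short of the 2-fold threshold. Gad2, the other such enzyme, had 2020, 2128, 1786 and 1773 counts (log2 fold change -0.24, SE 0.14). The vesicular GABA transporter gene Slc32a1, named outside the rule, had 592, 619, 445 and 801, lowest in cKO 1 and highest in cKO 2. DESeq2 called 1 gene over all 6 lists, Slc6a13, a GABA transporter of the meninges named outside the rule, which had 106, 20, 31 and 15 counts and was high in WT 1 alone. The ventral GABA neuron markers, which include Gad1 and Gad2, summed to 928 CPM in cKO 1 and 1413 in cKO 2.

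Whether GABA and glycine excite or inhibit a cell depends on its chloride gradient, which the cotransporters Slc12a2 (inward) and Slc12a5 (outward) set. The most counted cotransporter gene was Slc12a7, with 1523, 1357, 1484 and 1549 counts. Neither Slc12a2 nor Slc12a5, both named outside the rule, had groups that separated. The share of Slc12a5 in the summed RPKM of this pair was 56.4 and 63.9% for WT 1 and WT 2 and 51.2 and 68.3% for cKO 1 and cKO 2. In this list 0 of 6 tested genes were called.

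Auxiliary subunits of AMPA and kainate receptors and the scaffolds of the glutamate synapse gave 0 calls among 17 and 27 tested genes, with medians of -0.03 and -0.05. The AMPA receptor regulators Cacng7 and Cacng4 had 4132, 4422, 3807 and 5215 and 4023, 4650, 3910 and 4650 counts. The scaffold genes Dlgap4 and Dlg4 had 7010, 8737, 7231 and 9168 and 5773, 5922, 5069 and 6433. For all 4 of these cKO 2 was the highest library by CPM, and the groups overlapped. Among 18 tested partners of GABA and glycine receptors, 1 was called: Kctd12b, whose family members are auxiliary subunits of the GABA-B receptor, had 85, 34, 33 and 16 counts (log2 fold change -1.31, SE 0.57, unadjusted edgeR p of 0.0496). WT 1 was high for Kctd12b, WT 2 and cKO 1 did not differ by more than 1 count, and without WT 1 or without cKO 2 its log2 fold change was -0.45 or -0.88 and it was not called. The partners with the most counts were the synaptic adhesion gene Nlgn2, with 7013, 7241, 5971 and 8441 counts, and Gabarap, a carrier of GABA-A receptors to the membrane, with 4519, 4585, 4692 and 5475.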

How the data were processed

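The authors extracted total RNA from E13 tissue with TRIzol, sequenced libraries made from it by standard Illumina methods and deposited raw counts of reads per gene. The submitters' processing notes name Bowtie2 2.2.3, TopHat2 2.0.12, HTSeq 0.6.0 and the mouse build mm9, and strandedness is not given in the sources used here. GENCODE M21 holds 27232 of the genes, and for 97.2% the deposited start or end was at most 1 base away, so positions are taken as GRCm38. Of 27304 rows, 11 blank rows (0.0403%) were left out. Columns with the authors' own comparisons (fold change, p-values, normalized means) and a second table of WT 1 and cKO 1 were not used.

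Counts of all genes were fitted in R 4.3.3 by the quasi-likelihood method of edgeR 4.0.16, after filterByExpr and TMM scaling, with genotype as the only term. CPM used TMM-scaled library sizes, and RPKM divided CPM by the union of a gene's exons in GENCODE M21. GC content is that of the longest protein-coding transcript, and deviations of a library were taken on log2(CPM + 0.5). The procedure was tested on simulated counts. Alternatives were RLE normalization, filters of at least 1 count in any library and of at least 10 in every library, DESeq2 1.42.0, a replicate block and leaving out each library, where the lone library of a group is assumed to vary like the other group. Offsets for GC content and exon length were alternatives chosen after seeing the data. The receptor genes, the related lists and the marker lists were chosen with earlier results of these data known.

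Values in every library are given for the 2 subunits of each family with the highest mean RPKM, the 6 with the smallest p, any subunit called and any subunit with at least 20 counts in 1 library whose highest library was at least 2 times the mean of the other 3, and for the 2 genes of each related list with the highest CPM or an unadjusted p under 0.05. Others are named after their values were seen. Values of some genes are not reported here.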

Additional observations from a re-analysis of the deposited data

How the results depend on the processing

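With 2 libraries per group, 1 library can decide a call. The call of Grm5 at the study's thresholds was kept under RLE normalization, both filters on counts, DESeq2 and the replicate block, and was lost (0 receptor subunits called) with the GC offset and with the offset for GC content and exon length. Leaving out 1 library in turn gave 0 to 4 called subunits, 1 to 13 with an unadjusted p under 0.05, 0 to 2 with an adjusted p under 0.05 (Gria2 and Grm5, both 0.0406 by edgeR without cKO 1), 104 to 531 called genes in all, 0 to 3 called genes of the related lists and a median log2 fold change of the subunits of -0.39 to -0.16. With the GC offset, leaving out WT 1 or cKO 2 gave 1 called subunit each, 2 and 3 with an unadjusted p under 0.05, 111 and 197 called genes in all, 0 in the related lists and medians of -0.23 and -0.14. Gabrb2 and Grm5 had log2 fold changes of -1.29 and -1.99 without cKO 1, and of -0.28 and -0.46 without cKO 2. The count of subunits with an unadjusted p under 0.05 was 2 with the filter of at least 1 count in any library, where 2.78% of all genes reached that level.

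Genes called in all numbered 405 (1.48% of those tested) with that filter, 72 (0.482%) with at least 10 counts in every library and 82 (0.3%) with DESeq2. Of the related lists, 0 genes were called with RLE normalization and 2 with the filter of at least 1 count. With the replicate block, 3 subunits (Gabrb2, Gria2 and Grm5) had an unadjusted edgeR p under 0.05, a level that 3.31% of all genes reached. In that setting 208 genes (1.29%) were called in all and 2 in the related lists. Same-numbered libraries share only a number: the correlation of the deviations of WT 1 and cKO 1 from their group means was 0.126 over 16145 genes and 0.0119 over the 44 subunits. The log2 fold change of Grm5 was below 0 under every alternative run, while those of Gabra4 and Grm7, -1.06 and -1.24 without cKO 1, were 0.28 and 0.06 without cKO 2. The cause of these shifts was not tested.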
